A study of Mus musculus with 4 samples.

Results

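Interleukin 2, the chains of its receptor, related receptors of the common gamma chain family and the kinases that the gamma chain and its partner chains carry are described here in stimulated mouse CD8+ T cells. The 9 genes were taken by name from a deposited table of 53465 genes: the ligand gene Il2, the receptor genes Il2ra, Il2rb, Il2rg, Il4ra, Il15ra and Il21r, and the kinase genes Jak1 and Jak3. Each name stood on 1 row, and all 9 passed the filter on low counts. The cells were CD8+ T cells purified from spleen and kept for 24 h with beads carrying antibodies to CD3 and CD28, which stand in for antigen and for costimulation. All 4 libraries had this stimulation. Of these, 2 carried the label wild type (WT) and 2 the label PP2Cm KO, each pair described as biological replicates. PP2Cm, encoded by Ppm1k, is the mitochondrial phosphatase that switches on the breakdown of branched-chain amino acids. The sources used here do not give the mice's age, sex or strain, how the allele was made, or how many mice went into a library.

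Cytokines of this family signal through receptors that share the common gamma chain, encoded by Il2rg. The alpha chain (Il2ra, CD25) has no signalling tail of its own and turns the beta and gamma pair (Il2rb and Il2rg) from a receptor of intermediate affinity into one of high affinity for interleukin 2. Jak1 binds the beta chain or its counterpart and Jak3 binds the gamma chain, and together they phosphorylate STAT factors, mainly STAT5 for interleukin 2. In CD8+ T cells, antigen signals switch on Il2ra and Il2, and STAT5 then raises Il2ra further.

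The libraries held between 12967251 and 17316284 counts. Counts per 1000000 counts of a library (CPM) are used below for levels of a gene across libraries, and FPKM, the deposited count per kilobase of gene and per 1000000 counts, for levels between genes. The genotype labels are in conflict. The title and genotype field of each library name 1 genotype and its description code begins with the letters of the other. Ppm1k stood at 7.84 and 5.53 CPM with the WT label and at 11.8 and 14.3 CPM with the KO label, a difference against the title that did not pass the test (log2 fold change 0.97, adjusted p = 0.186 by edgeR). Groups follow the titles throughout, and every direction would turn if the codes named the genotype. The T cell markers Cd3e and Cd8a stood at 294 to 345 and at 511 to 547 CPM over the 4 libraries. They were the flattest of 9 T cell markers, of which 7 had a negative log2 fold change, and edgeR and DESeq2 called 0. At an unadjusted p under 0.05, 3 of the 9 were lower (Cd3d, Cd3g and Thy1), beside 12.9% of all genes in either direction. Among 6 myeloid, 6 dendritic and 6 erythroid and platelet markers, the highest value in any library was 5.65 CPM, for Itgax. Their summed levels with the WT and the KO label were 2.38 and 6.24 against 4.14 and 3.18 CPM for myeloid, 4.07 and 6.004 against 2.56 and 4.08 CPM for dendritic, and 2.46 and 5.30 against 1.05 and 1.45 CPM for erythroid and platelet markers. The 6 B cell markers summed to 13.5 and 17.8 against 13.7 and 7.13 CPM. The 5 markers of NK and gamma-delta T cells summed to 92.7 and 102 against 93.5 and 87.6 CPM, most of it Eomes, which CD8+ T cells also express. Cd209a was at 0 in all 4 libraries. In bulk RNA, fewer cells of a type and less RNA per cell cannot be told apart.

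Il2ra and Il2 had the largest differences between labels among the 9 genes, and their proximal promoters are shown first because the text returns to them. Each line is the 250 bases before the RefSeq transcription start on GRCm38.p6, 5′ to 3′ on the gene's own strand. Il2ra is chr2:11642542-11642791 on the plus strand, and Il2 is chr3:37125955-37126204 on the minus strand. Capitals mark matches, on either strand, to GGAAA (the core bound by NFAT), TGANTCA (AP-1), TTCNNNGAA (STAT5) or GGGRNNYYCC (a consensus of NF-kappaB). N is any base, R is A or G, and Y is C or T.
Il2ra: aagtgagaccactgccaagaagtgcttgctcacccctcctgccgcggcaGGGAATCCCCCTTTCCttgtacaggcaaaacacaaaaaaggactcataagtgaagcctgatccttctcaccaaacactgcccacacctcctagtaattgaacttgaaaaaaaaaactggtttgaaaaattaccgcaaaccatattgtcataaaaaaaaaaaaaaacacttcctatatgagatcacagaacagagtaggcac
Il2: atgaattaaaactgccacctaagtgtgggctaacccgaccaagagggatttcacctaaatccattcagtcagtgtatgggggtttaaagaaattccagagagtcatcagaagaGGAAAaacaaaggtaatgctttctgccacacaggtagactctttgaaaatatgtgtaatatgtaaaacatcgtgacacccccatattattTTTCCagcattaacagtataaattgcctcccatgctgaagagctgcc
The Il2ra window held overlapping matches to the NF-kappaB consensus, the first from 201 to 192 bases before the start, and 1 NFAT core from 190 to 186 bases before it. That window held no match to the AP-1 or STAT5 motif as spelled here. The Il2 window held 2 NFAT cores, at 137 to 133 and at 47 to 43 bases before the start, and no match to the other 3 motifs as spelled here. Among 32851 promoter windows of this length, 55.6% held GGAAA, 6.75% TGANTCA, 7.02% TTCNNNGAA and 7.25% the NF-kappaB consensus. The motifs were chosen after both sequences had been read, and the spelling of the NF-kappaB consensus was taken from several in use as one that matches the Il2ra window, so its presence there is no finding. A match is a run of letters and not a measured binding site.

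Of the 9 genes, 1 passed an adjusted p of 0.05 over all genes by edgeR, and it was Il2ra, which was higher with the KO label. Over the 13528 genes tested, 28 were called, or 0.207%, with 0.103% higher and 0.103% lower. At an unadjusted p under 0.05, 2 members were higher (Il2ra and Il2) and 3 lower (Il2rb, Il2rg and Jak1), against 12.9% of all genes in either direction. Without labelled KO replicate 1 Il2 was the 1 member called, without labelled KO replicate 2 none was, and leaving out either of the WT-labelled libraries gave both Il2 and Il2ra. In 8 of 9 members the 2 labels did not overlap, 4 in each direction, where 44.9% of all genes had no overlap. The median log2 fold change of the 9 was −0.10, beside −0.01 for all genes tested.

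**Figure D1:**
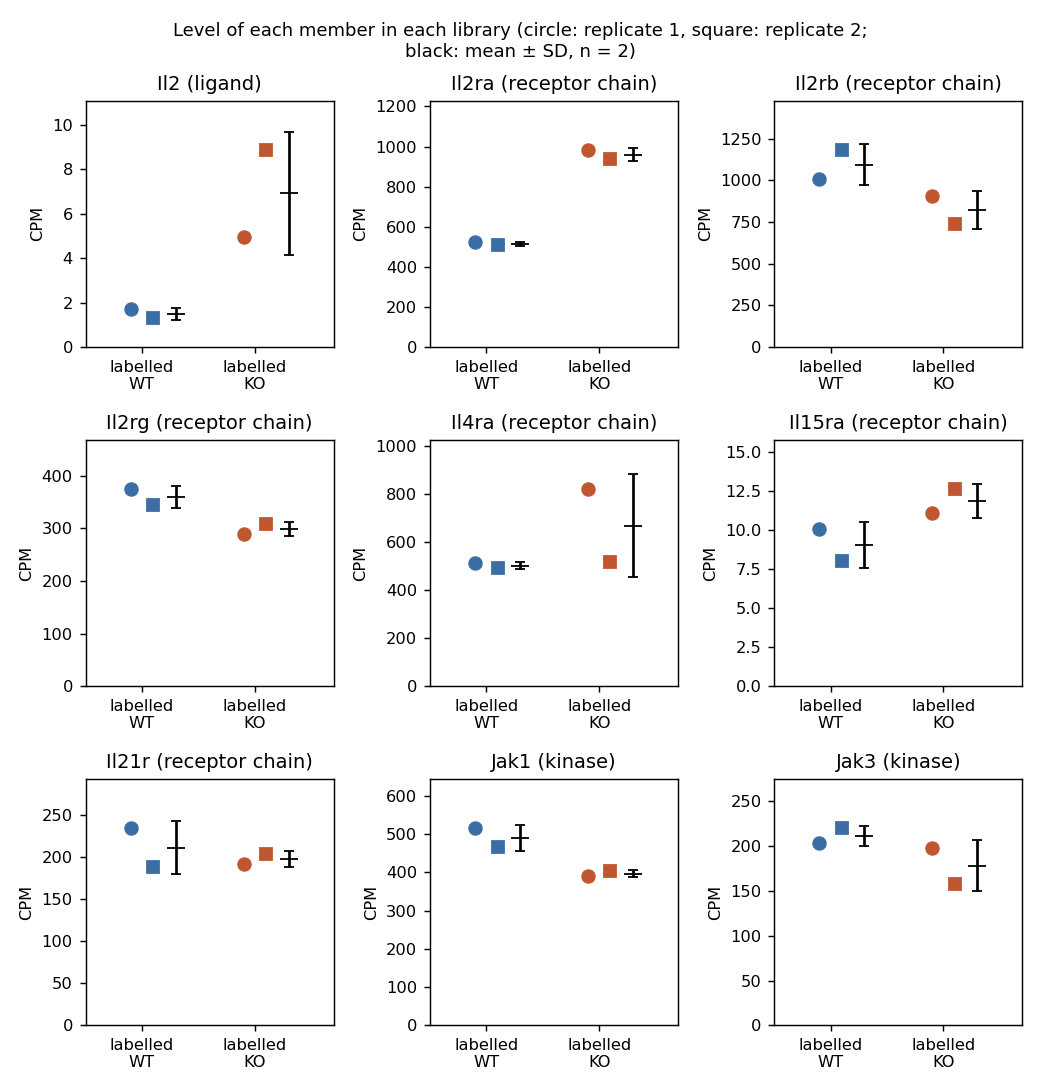
CPM (vertical axis, linear from 0) of each of the 9 genes in the 2 libraries of each label; circles are replicate 1, squares replicate 2, and black marks the mean ± SD. Il2ra sits between 508 and 523 CPM with the WT label and between 937 and 983 CPM with the KO label, while Il4ra is high in 1 library labelled KO.

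The ligand gene Il2 (ENSMUSG00000027720, chr3:37120523-37125959, minus strand, GRCm38) was weakly expressed in every library. It had 22 and 22 counts with the WT label and 66 and 128 with the KO label. The 95% counting intervals, exact Poisson and for counting error alone, were 13.8 to 33.3 for each labelled WT count, 51.0 to 84.0 for the first labelled KO count and 107 to 152 for the second. On the CPM scale these were 1.69 and 1.30 against 4.96 and 8.86, or 1.49 ± 0.279 against 6.91 ± 2.76 (SD, n = 2 each). Both libraries labelled KO were above both labelled WT, and they differed from each other by more than their counting intervals. The log2 fold change was 2.22 (SE 0.38, 95% limits 1.32 and 3.12), 4.66-fold, the largest among the members. By edgeR its adjusted p was 0.0883, so the difference did not pass over all genes, and by DESeq2 it was 0.0020, in a range of 0.0020 to 0.437 over 11 alternatives, 6 of which called it.

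Il2 overlaps Adad1 on the opposite strand but shares no exon bases with it, and Adad1 had at most 1 count in a library. Cells other than CD8+ T cells make interleukin 2, above all CD4 T cells. Cd4 had 39 and 80 counts with the WT label and 133 and 74 with the KO label. On the CPM scale Cd4 stood at 2.996 and 4.71 against 10 and 5.12, without overlap (log2 fold change 0.96, adjusted p = 0.369 by edgeR). Cd40lg stood at 0.999 and 1.12 against 1.20 and 1.52 CPM (log2 fold change 0.36, adjusted p = 0.756 by edgeR). Zbtb7b, the factor of the CD4 lineage, lay the other way, at 9.53 and 16.7 against 9.02 and 7.06 CPM (log2 fold change −0.71, adjusted p = 0.383 by edgeR). Of the 5 CD4 and regulatory T cell markers, 3 were above in both libraries labelled KO and 1 was below, where 21.5% and 23.3% of all genes were. Summed over the 5, the libraries labelled WT held 39.0 and 38.2 CPM and those labelled KO 46.7 and 40.9 CPM. Most of each sum was Zbtb7b and Ikzf2, the latter at 24.2 and 15.0 against 24.1 and 25.9 CPM. With the KO label, Cd4 was higher in replicate 1 and Il2 in replicate 2, a single contrast from which nothing is concluded. The part of CD4 T cells in the Il2 difference was not tested.

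The alpha chain gene Il2ra (ENSMUSG00000026770, chr2:11642807-11693193, plus strand) rose with the KO label. Its counts were 6804 and 8622 with the WT label and 13070 and 13537 with the KO label, or 523 and 508 CPM against 983 and 937 CPM. The 2 libraries of a label were close and the labels did not overlap. The log2 fold change was 0.90 (SE 0.11, 95% limits 0.63 and 1.16), 1.86-fold, with an adjusted p of 0.0488 by edgeR, and it ranked 28 by p among 13528 genes. The call was just inside the threshold and was lost under 5 of 11 alternatives (adjusted p from 1.35e-10 to 0.164 over the 11), while the log2 fold change stayed between 0.86 and 0.94. Those 5 were both fits on deposited FPKM, the crossed pairing of replicate numbers, and leaving out either library labelled KO.

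Regulatory T cells hold much Il2ra. Their defining factor Foxp3 stood at 1.23 and 0.706 CPM with the WT label and at 2.33 and 1.32 CPM with the KO label. Foxp3 had a log2 fold change of 0.93 (SE 0.48, adjusted p = 0.48 by edgeR). The part of regulatory T cells in the Il2ra difference was not tested. Gm37881, an unnamed transcript inside Il2ra on the same strand with no shared exon bases, had 23 and 36 counts against 49 and 40.

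**Figure D2:**
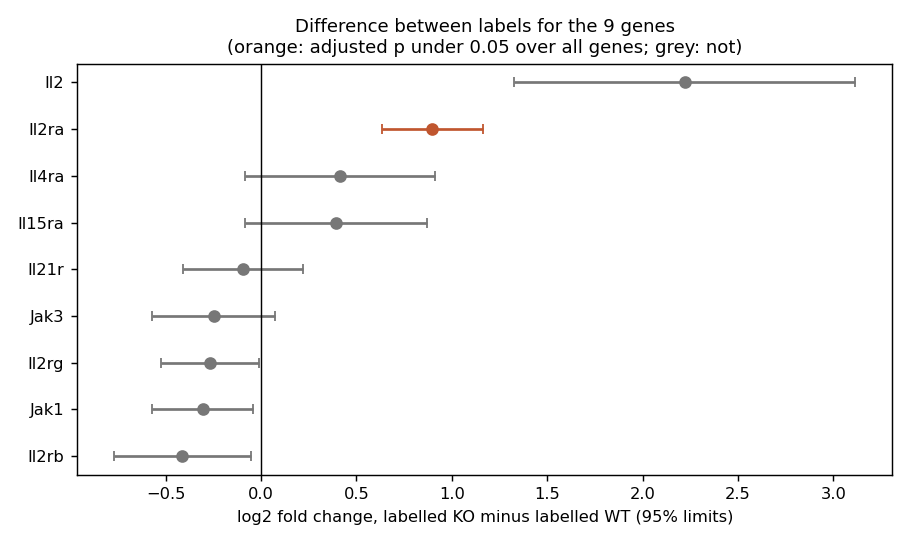
Log2 fold change, labelled KO minus labelled WT, of each gene (points) with 95% limits (bars) from edgeR; orange marks the gene past an adjusted p of 0.05 over all genes. Il2ra at 0.90 is the 1 gene called, Il2 has the widest limits, and the limits of Il4ra, Il15ra, Il21r and Jak3 include 0.

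The signalling chains of the interleukin 2 receptor did not pass the test. Il2rb, the beta chain shared with the interleukin 15 receptor (ENSMUSG00000068227, chr15:78480553-78495066, minus strand), stood at 1006 and 1181 CPM with the WT label and at 903 and 740.3 CPM with the KO label. Its log2 fold change was −0.41 (SE 0.15, 95% limits −0.77 and −0.05, adjusted p = 0.325). Il2rg, the common gamma chain (ENSMUSG00000031304, chrX:101264378-101268255, minus strand), stood at 374 and 345 CPM against 289 and 308 CPM. Its log2 fold change was −0.27 (SE 0.11, 95% limits −0.52 and −0.01, adjusted p = 0.374). In both genes each library labelled KO was below each labelled WT, in the opposite direction to Il2ra. Il2rg shares 728 exon bases on the same strand with Gm20489, which had at most 1 count in a library.

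The balance of the 3 chains was read as ratios of FPKM within each library, which no scaling between libraries affects. The pairs of chains were chosen after the values of the members had been seen. The ratio of Il2ra to Il2rb was 0.320 and 0.264 with the WT label and 0.669 and 0.778 with the KO label. The difference was 1.31 on the log2 scale, a 2.48-fold higher ratio, where the SD of the log2 ratio was 0.19 and 0.15 within labels. The ratio of Il2ra to Il2rg was 0.856 and 0.902 against 2.08 and 1.86, 2.24-fold higher. Alpha chain mRNA was below gamma chain mRNA per length in both libraries labelled WT and above it in both labelled KO. The ratio of Il2rb to Il2rg was 2.68 and 3.42 against 3.11 and 2.40, with the labels overlapping. With 2 libraries per label an exact permutation test cannot go below p = 0.333, and no test of the ratios was run. Il2ra was used in each of the first 2 ratios, so they are not separate evidence from its own difference.

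**Figure D3:**
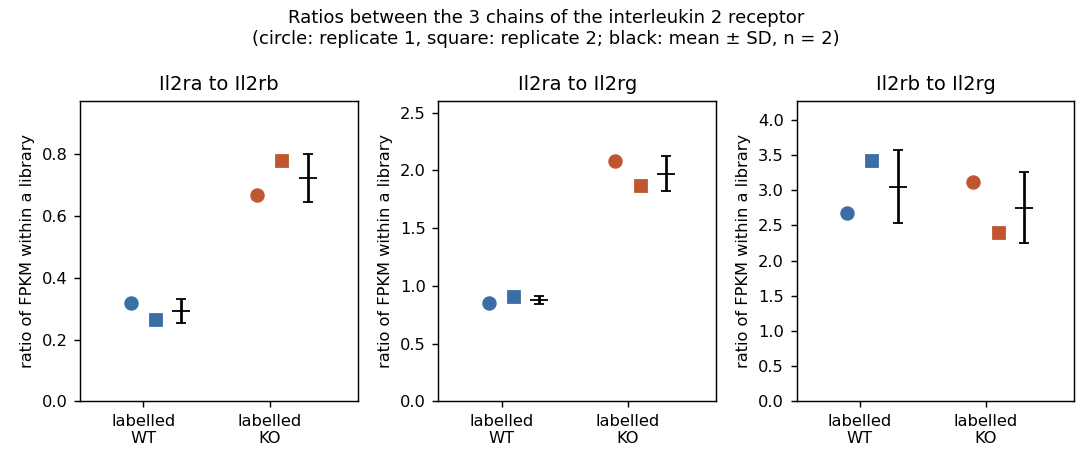
Ratio of deposited FPKM between pairs of receptor chain genes within each library (vertical axis, linear from 0); circles are replicate 1, squares replicate 2, and black marks the mean ± SD. Both ratios with Il2ra are separated by label, and the ratio of Il2rb to Il2rg overlaps.

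The other cytokine-specific chains showed no difference that passed the test. Il4ra, the chain that binds interleukin 4 (ENSMUSG00000030748, chr7:125552120-125579474, plus strand), stood at 512 and 492 CPM with the WT label and at 822 and 517 CPM with the KO label. Its log2 fold change of 0.41 (SE 0.21, adjusted p = 0.467) became 0.04 without labelled KO replicate 1 and 0.72 without labelled KO replicate 2. Il21r, the interleukin 21 receptor chain (ENSMUSG00000030745, chr7:125603429-125633570, plus strand), lies 23954 bases from Il4ra and stood at 234 and 189 CPM against 192 and 205 CPM. It was the 1 member whose labels overlapped, with a log2 fold change of −0.10 (SE 0.13, 95% limits −0.41 and 0.22). Il4ra and its neighbour thus differed in labelled KO replicate 1, where Il4ra was at its highest and Il21r was not.

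Il15ra, the chain that presents interleukin 15 to the beta and gamma pair (ENSMUSG00000023206, chr2:11705290-11734317, plus strand), lies 12096 bases from the end of Il2ra. It had 131 and 136 counts with the WT label and 147 and 182 with the KO label, or 10.1 and 8.01 against 11.1 and 12.6 CPM. Its log2 fold change was 0.39 (SE 0.20, 95% limits −0.08 and 0.87, adjusted p = 0.471). Il15ra was thus about as far above with the KO label as Il4ra was, with a smaller spread between the KO-labelled libraries, and neither passed. Of the other tested genes outside Il2ra and within 200 kb of it, a window chosen after earlier results were known, Rbm17 had a log2 fold change of 0.40 (SE 0.13), Pfkfb3 of 0.78 (SE 0.31), Fbh1 of −0.17 (SE 0.15) and Ankrd16 of 0.28 (SE 0.22), and their adjusted p values were 0.283 to 0.7. Pfkfb3, which encodes an enzyme that speeds glycolysis, stood at 39.1 and 28.7 CPM against 76.2 and 40.4 CPM.

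The kinases had small differences in the direction of Il2rb and Il2rg. Jak1, which binds the cytokine-specific chains (ENSMUSG00000028530, chr4:101152367-101265282, minus strand), stood at 515 and 467 CPM with the WT label and at 390.2 and 403 CPM with the KO label. Its log2 fold change was −0.31 (SE 0.11, 95% limits −0.57 and −0.04, adjusted p = 0.32). Jak3, which binds the gamma chain (ENSMUSG00000031805, chr8:71676296-71690575, plus strand), stood at 204 and 219.8 CPM against 198 and 158 CPM, with a log2 fold change of −0.25 (SE 0.14, 95% limits −0.57 and 0.07, adjusted p = 0.5). The Jak3 log2 fold change was −0.09 without labelled KO replicate 2. Jak3 shares 404 exon bases on the same strand with Insl3, which had 4 to 7 counts. Jak1 shares 4 exon bases with Raver2 on the opposite strand, which had 108 to 252 counts, and no source used here says if reads were counted by strand. The FPKM ratio of Jak1 to Jak3 was 2.16 and 1.82 against 1.68 and 2.18, with the labels overlapping.

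Per length, Il2rb was the most abundant of the 9 genes and Il2 and Il15ra the least, with both labels. In the libraries labelled WT the mean FPKM ran from Il2rb at 298 ± 29.0 through Il2rg at 98.2 ± 7.28, Il2ra at 86.3 ± 3.20, Il4ra at 54.4 ± 2.45, Jak1 at 53.2 ± 4.55, Il21r at 41.3 ± 6.93 and Jak3 at 26.8 ± 0.984 to Il2 at 1.30 ± 0.263 and Il15ra at 0.735 ± 0.130 (SD, n = 2 each). Il4ra and Jak1 did not differ beyond their spread. In the libraries labelled KO, Il2rb stood at 226 ± 27.9, Il2ra at 163 ± 2.68, Il2rg at 82.7 ± 5.11, Il4ra at 73.3 ± 22.4, Jak1 at 43.5 ± 1.75, Il21r at 39.2 ± 2.46, Jak3 at 22.8 ± 3.26, Il2 at 6.09 ± 2.53 and Il15ra at 0.974 ± 0.107 FPKM (SD, n = 2 each). Il2rg and Il4ra overlapped there. With the deposited lengths, the change of order between labels was that Il2ra moved past Il2rg. The deposited lengths differ from the exon lengths of GENCODE M21 for all members but Il2, most for Il15ra, at 12214 bases implied by count and FPKM against 4446. With the latter lengths the ratio of Il2ra to Il2rb was 0.390 and 0.323 against 0.817 and 0.950, and Il2ra again passed Il2rg, at means of 89.5 against 149.5 per kilobase and 1000000 counts with the WT label and 169 against 126 with the KO label. Jak1 and Il21r then also changed order, at 67.4 against 63.3 with the WT label, where their libraries overlapped, and at 55.2 against 59.9 with the KO label. The lowest places turned with the WT label, where Il15ra stood at 2.02 and Il2 at 1.30.

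Other genes of the pathway were read from 7 lists. The lists were set with earlier results of these data known and are described by counts and medians, with no test of a list. Of other ligands of the family, Il4 and Il13 had enough counts to be tested, Il9, Il15 and Il21 were at 1.28 CPM or less in every library, and Il7 had no count in any. A count of 0 allows at most 0.173 to 0.231 CPM at these totals. Of other receptor chains, Il7r, the interleukin 7 receptor chain that marks resting and memory T cells, stood at 66.1 and 61.8 CPM with the WT label and at 37.7 and 47.1 CPM with the KO label (log2 fold change −0.59, SE 0.16, adjusted p = 0.22). Crlf2, which pairs with Il7r in the receptor for TSLP, had a log2 fold change of 0.10 (SE 0.20). Neither tested ligand nor either tested chain was called by edgeR or DESeq2, and 1 of the 4 had an unadjusted p under 0.05, beside 12.9% of all genes in either direction.

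Of 4 STAT genes, edgeR and DESeq2 called 0, and at an unadjusted p under 0.05 there was 1, higher, beside 12.9% of all genes in either direction. That was Stat5a, at 245 and 207 CPM with the WT label and 271 and 297 CPM with the KO label (log2 fold change 0.33, SE 0.12, adjusted p = 0.338). Its near copy Stat5b stood at 257 and 248 against 272 and 247 CPM, with the labels overlapping (log2 fold change 0.04, SE 0.11). The pair are close paralogues, and reads that match both can be divided between them. Stat3 and Stat6, the factors of interleukin 21 and of interleukin 4, had log2 fold changes of −0.19 and −0.13. In each, both libraries labelled KO were below both labelled WT, as were those of 23.3% of all genes.

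Of 16 genes known as induced by interleukin 2 and STAT5, Il2ra among them, Il2ra was the 1 called by edgeR, and DESeq2 also called Pim1. In 8 of the 16 each KO-labelled library exceeded each WT-labelled one and in 0 the reverse held, where 21.5% of all genes lay above and 23.3% below. The median log2 fold change was 0.22, with 11 positive and 5 negative. Cish, the STAT5-induced inhibitor of the receptor, stood at 39.1 and 118 CPM with the WT label and at 219 and 193 CPM with the KO label (log2 fold change 1.38, SE 0.44, adjusted p = 0.274). The 2 libraries labelled WT differed widely in Cish. Pim1, a kinase that supports survival and growth, stood at 353 and 343 against 468 and 474 CPM (log2 fold change 0.44, SE 0.10, adjusted p = 0.179). Socs2, a further feedback inhibitor, stood at 11.8 and 16.8 against 29.8 and 19.0 CPM, and Lta, which encodes lymphotoxin alpha, at 61.7 and 100.1 against 134 and 126 CPM. Their log2 fold changes were 0.76 (SE 0.27) and 0.68 (SE 0.22), and their adjusted p values 0.307 and 0.276. Bcl2, a survival factor, had a log2 fold change of 0.22 (SE 0.11).

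The most negative of that list were Gzmb, which encodes granzyme B, at 1021 and 1651 CPM against 1156 and 994 CPM, the cyclin gene Ccnd3 at 142 and 266 against 100.3 and 162 CPM, and Prdm1, which encodes Blimp-1, at 2.61 and 5.89 against 3.08 and 1.52 CPM. In all 3 the labels overlapped. The 6 feedback inhibitors, 4 of which are also in the list of induced genes, had a median of 0.25, and edgeR and DESeq2 called 0 of them. At an unadjusted p under 0.05, 2 of the 6 were higher, where 12.9% of all genes passed in either direction. Socs3, and the phosphatases Ptpn2 and Ptpn6, had log2 fold changes of −0.08, 0.03 and −0.16, and in each the labels overlapped.

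**Figure D4:**
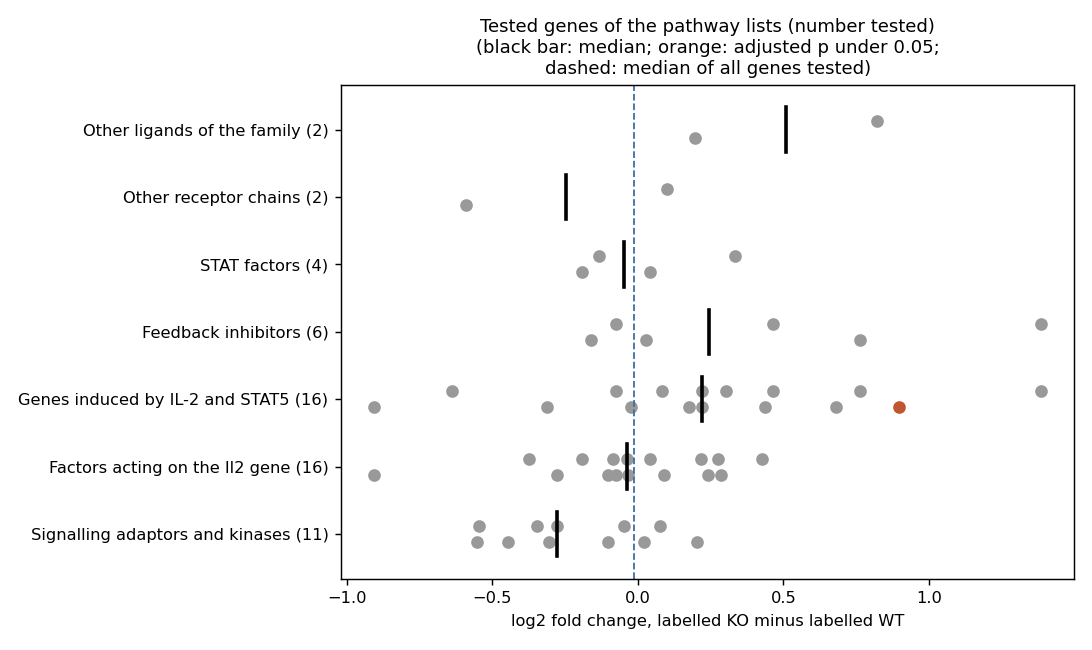
Log2 fold change, labelled KO minus labelled WT, of each tested gene (points) of the 7 pathway lists, with the list's median (black bar) and the median of all genes tested (dashed line). The genes induced by interleukin 2 and STAT5 have a median of 0.22 and hold the 1 called gene, Il2ra in orange; the adaptors and kinases have a median of −0.28.

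Factors that act on the Il2 gene had a median log2 fold change of −0.04 over 16 genes, close to that of all genes. EdgeR and DESeq2 called 0, and 0 had an unadjusted p under 0.05. Nfatc1, whose family binds the GGAAA core printed above, stood at 201 and 171 CPM with the WT label and at 174 and 189 CPM with the KO label. Nfatc2 stood at 42.1 and 98.2 against 102 and 87.2 CPM, where labelled WT replicate 1 was low. Rel, the NF-kappaB subunit c-Rel, stood at 173 and 101 against 121 and 209.9 CPM, with the labels overlapping. The AP-1 gene Fos was at 3.46 to 4.15 CPM over the 4 libraries. Of the 16, 2 were above in both libraries labelled KO (Nfkb1 and Crem) and 5 below, where 21.5% and 23.3% of all genes were.

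Signalling adaptors and kinases downstream of the receptor had a median of −0.28 over 11 genes, with 3 positive and 8 negative. EdgeR and DESeq2 called 0, and 2 were lower at an unadjusted p under 0.05, beside 12.9% of all genes in either direction. These were Mapk3, which encodes ERK1, at 51.8 and 46.3 against 37.5 and 34.5 CPM (log2 fold change −0.45, SE 0.15), and Lck, the kinase of the T cell receptor that also binds the beta chain, at 545 and 551 against 485 and 403 CPM (log2 fold change −0.30, SE 0.13). In 6 of the 11 each KO-labelled library was under each WT-labelled one, where 23.3% of all genes were. T cell identity markers held 4 such genes of 9, among them Cd3d at 173 and 175 against 107 and 137 CPM and Thy1 at 961 and 995 against 785 and 795 CPM, and they summed to 3453 and 3220.1 against 3001 and 2926 CPM. The part of this shift in the lower values of Il2rb, Il2rg, Jak1 and Jak3 was not tested.

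The genes most like Il2ra over the 4 libraries were sought among 4659 tested genes with a mean of at least 50 CPM, by the root mean square difference between log2 CPM values centred on each gene's mean. The 3 nearest were Ube2j2 (0.04), Gm12816 (0.07) and Pros1 (0.08). Ube2j2, a ubiquitin-conjugating enzyme of the endoplasmic reticulum, stood at 43.7 and 42.6 CPM with the WT label and at 80.5 and 73.2 CPM with the KO label. For Il2 the 3 nearest were Cd200 (0.12), Nr4a3 (0.17) and Mob1a (0.28). Nr4a3, a nuclear receptor induced by T cell receptor signals, stood at 92.3 and 59.2 against 192 and 338 CPM. All 3 were picked for likeness to Il2, so a pattern shared with it over the libraries is no finding. Likeness over 4 libraries describes these libraries alone.

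**Figure D5:**
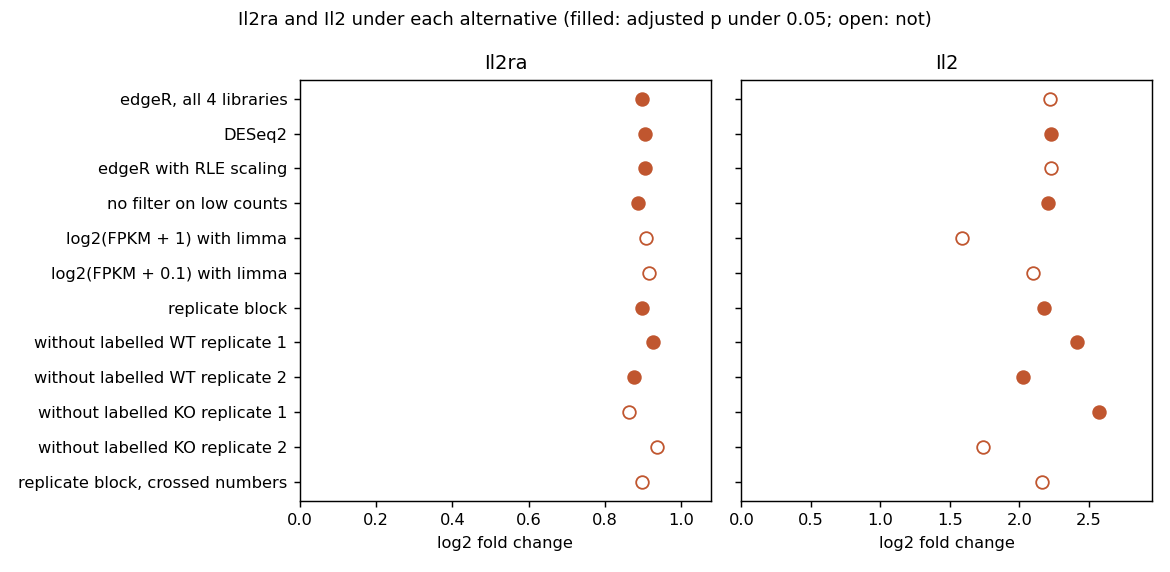
Log2 fold change of Il2ra (left) and Il2 (right) under each way of processing listed on the vertical axis; filled points have an adjusted p under 0.05 and open points do not. Il2ra stays between 0.86 and 0.94, and Il2 between 1.58 and 2.57, while the calls change.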

How the data were processed

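RNA of 4 libraries was sequenced; per the labels' protocols, mRNA was purified from total RNA and made into libraries with a stranded kit. Per the file headers, the authors deposited counts per gene, which are whole numbers, and FPKM. The submitters' processing notes name kallisto and GRCm38, with no version or role; how reads were counted, whether strand was used and which filters applied is not stated there. Columns were joined to samples through the description code. A further 8 value columns in the file match none of these samples and were left unused.

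Genes were filtered by filterByExpr, given TMM scaling factors and compared in edgeR 4.0.16 under R 4.3.3 by its quasi-likelihood test, two-sided, labelled KO minus labelled WT, with Benjamini-Hochberg adjustment over all 13528 genes tested and a threshold of 0.05. The standard error is the log2 fold change over the square root of F. CPM are TMM-scaled. The method was tested on simulated counts that gave all genes the same biological variation and changed no weakly expressed gene. That setting covers neither a gene as low as Il2 nor variation that differs between genes. P-values measure the spread between these libraries, pooled across genes; the biological coefficient of variation was 15.9%. Alternatives used DESeq2 1.42.0 on the same 13528 genes, RLE scaling, no filter, limma 3.58.1 on log2(FPKM + 1) and log2(FPKM + 0.1), the replicate number as a block, and each library left out. Members and lists were chosen with earlier results of these data known. Some genes of the lists are not reported here; they were taken out of the list counts and medians after values had been seen, for a reason unrelated to those values, and stayed in the fit over all genes. Named were all members, genes of the lists, Ppm1k, and the 3 genes nearest in pattern to Il2ra and to Il2; neighbouring and overlapping genes, the pairs of chains set in ratios and the promoter motifs were chosen after values or sequences were seen. Promoters are from RefSeq (GRCm38.p6), where 8 of the 9 members matched; Il2rb had no entry. Gene positions are those deposited, and strands, exons and overlaps are from GENCODE M21, also GRCm38, which gave the same position for 8 of the 9 members, all but Il2rb.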

Additional observations from a re-analysis of the deposited data

How the results depend on the processing

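Over all genes, edgeR called 28 genes and 1 member. With DESeq2 it was 276 genes and 2 members, with no filter on low counts 146 and 2, with log2(FPKM + 1) 5 and 0, and with log2(FPKM + 0.1) 4 and 0. With the replicate block it was 123 genes and 2 members. RLE scaling gave the 28 genes and the 1 member again. As single libraries were left out, 8 to 304 genes and 0 to 2 members were called. With 1 library left in a label, the spread comes from the intact pair and the lone library is assumed to vary like it. Where 2 members were called they were Il2 and Il2ra.

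Deviations of same-numbered libraries from their label's mean correlated at −0.21 across 9234 genes. With 2 libraries per label this is a single contrast, so it cannot show whether the replicate numbers paired the samples. The crossed pairing as a replicate block, added after seeing the data, called 12 genes and 0 members. With the block on the labels' own numbers, Il2 had an adjusted p of 0.0172 and Il2ra of 0.0350. The log2 fold change of Il2ra was 0.86 to 0.94 under the 11 alternatives, and that of Il2 1.58 to 2.57, with adjusted p values of 0.0020 to 0.437. Among the other 7 members none was called under any of the 11, and 1 changed sign: Il21r was at 0.0738 without labelled WT replicate 1, and between −0.242 and 0.0738 over the 4 fits that leave out a library. The ratio of Il2ra to Il2rb differed by 1.18 to 1.45 on the log2 scale as single libraries were left out. Depth limits Il2 and Il15ra most, with 22 to 182 counts per library.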
